A study of Mus musculus with 8 samples.

Results

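The genes of 2 corepressor families were followed in hearts of mouse embryos with and without an intact TLE-binding motif in Tbx20. These were the 6 Groucho/TLE family genes Tle1, Tle2, Tle3, Tle4, Tle6 and Aes and the 4 class I histone deacetylase genes Hdac1, Hdac2, Hdac3 and Hdac8. They were chosen by name and found by their Ensembl identifiers, and all 10 were present among the 49315 genes listed in the count tables. Poly-A selected RNA was sequenced from whole hearts at embryonic day 9.5. The 4 wild-type (WT) and 4 homozygous Tbx20EH1Mut libraries each came from 3 pooled hearts, and no other allele or treatment was given for either group. The mutant line was made by genome editing in embryos from C57BL/6J oocytes fertilized by a male heterozygous for an Avi-tagged Tbx20 allele. It descended from 1 founder animal, in which the tag was absent, and was crossed back to wild-type mice for several generations. Every cell of the embryo carried the mutation, male and female mice were used, and the sex of the embryos in each pool was not given.

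Groucho/TLE proteins do not bind DNA themselves. They are brought to genes by transcription factors that carry short docking peptides, among them the engrailed homology 1 (EH1) motif, and they repress transcription there, in part by bringing histone deacetylases. Class I deacetylases remove acetyl groups from histones in the nucleus. Hdac1 and Hdac2 work inside the NuRD, Sin3 and CoREST complexes, Hdac3 works inside the NCoR/SMRT complex, and Hdac8 acts outside these complexes. Tbx20 is a T-box transcription factor needed for growth and patterning of the embryonic heart.

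The sequence that separates the genotypes lies in the Tbx20 coding sequence, so the wild-type reference is shown first. Codons 8 to 29 of Tbx20 are on the minus strand at chr9:24773759-24773824 (GRCm38), in a coding exon, and the capitals mark codons 18 and 19, which the Tbx20EH1Mut allele replaces within the EH1 motif.
Tbx20 codons 8 to 29: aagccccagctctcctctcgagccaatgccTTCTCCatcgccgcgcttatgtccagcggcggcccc

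The substituted codons cannot be seen in gene counts, so the counts do not check the genotype labels. Tbx20 itself was at 353, 366, 380 and 372 CPM (counts relative to library size, scaled by TMM) in WT replicates 1 to 4 and at 215, 247, 289 and 317 CPM in Tbx20EH1Mut replicates 1 to 4. Every mutant library was below every WT library. The log2 fold change, mutant over WT in this and all later comparisons, was -0.46 (SE 0.13, edgeR quasi-likelihood test, Benjamini-Hochberg adjusted p = 0.0273 over the 17163 genes that passed the filter on low counts). The call was lost without WT replicate 3 (adjusted p = 0.0726), WT replicate 4 (0.0712), mutant replicate 1 (0.063) or mutant replicate 2 (0.0662), with log2 fold changes of -0.55 to -0.36 as each library was dropped in turn. It was also lost with upper-quartile scaling (adjusted p = 0.0608), with the foregut marker level (0.211) or the Y-linked level (0.0619) as a covariate, and with an offset for gene length (0.0898). In whole hearts, fewer cells of a type and less RNA per cell cannot be told apart.

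The libraries held 33359322 to 49523086 counts in WT and 36250675 to 38357025 in Tbx20EH1Mut hearts. WT replicate 1 was the shallowest and lay nearest to the mutant libraries on the first principal component (-13.7, against -69.6 to -57.0 in the other WT libraries and 25.9 to 88.5 in the mutants, 50.5% of the variance). WT replicate 2 was high in long genes, with a median log2 deviation from the all-library mean of 0.29 for genes over 8000 bases and -0.36 for genes up to 1500 bases. Cardiomyocyte markers summed to 33060 to 37100 CPM in WT and 28980 to 40130 CPM in mutant libraries, with 1 of 10 genes called lower. Markers of foregut epithelium, tissue that lies behind the heart, summed to 190 to 295 CPM in WT and 656 to 892 CPM in mutant libraries, and 5 of 10 were called higher. Endothelial and endocardial markers (4 of 9 called higher) summed to 752 to 924 CPM against 1009 to 1103 CPM. Erythroid markers (9 of 9 called lower) summed to 1888 to 4995 CPM against 364 to 1115 CPM. Markers of S phase and of G2 and M phases were called lower for 6 of 12 and 7 of 11 genes. Neural crest markers had 2 of 5 tested genes called higher, and the neural tube and proepicardial lists each had 1 of 6 tested genes called higher and 1 called lower. These marker counts stand against 14.0% called higher and 15.3% called lower over all genes.

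All 10 members passed the filter, and 2 of them differed between the genotypes at an adjusted p of at most 0.05. Tle4 and Hdac8 were higher in Tbx20EH1Mut hearts. Of the 17163 genes in the fit, 29.3% were called (14.0% in the higher and 15.3% in the lower direction), so that the 2 called of 10 members are near the share among all genes. With all 8 libraries and genotype as the only term, no member was called lower by edgeR, by DESeq2 or by limma-voom, and none was lower at an unadjusted edgeR p under 0.05. Tle2 was called lower in 2 alternative edgeR fits, given with that gene. The median log2 fold change of the 10 members was 0.14 (range -0.37 to 0.73), against 0.005 over all genes. The groups of libraries did not overlap for 2 members, Tle4 and Hdac1, against 30.5% of all genes.

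**Figure D1:**
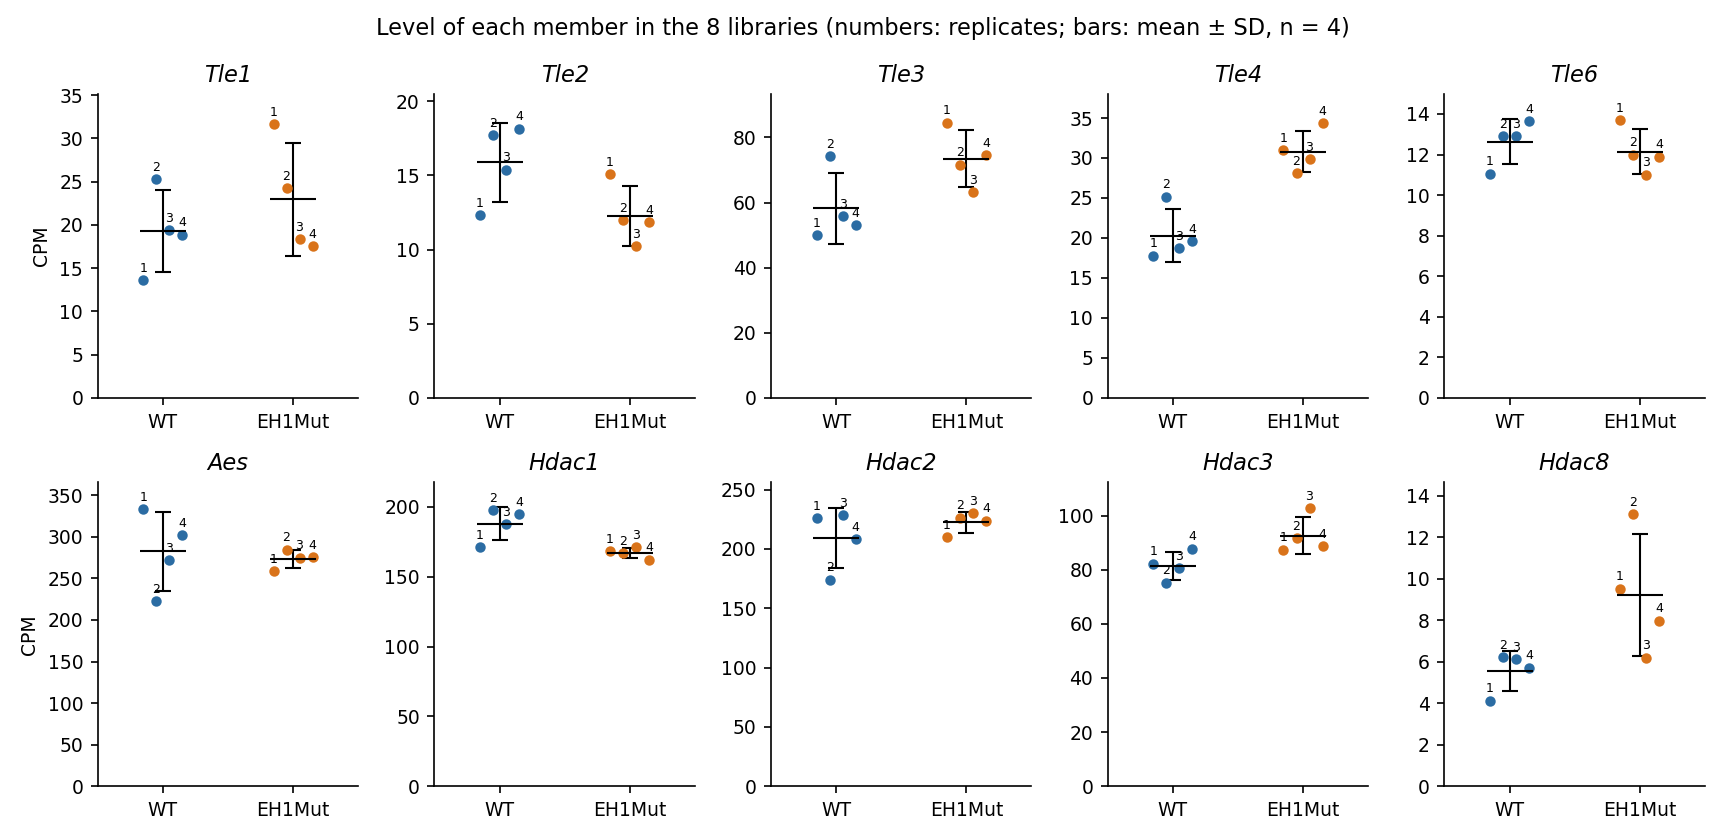
Level of each member in CPM (linear axes from 0), with 1 dot per library numbered by replicate, WT in blue and Tbx20EH1Mut in orange, and bars for the mean ± SD (n = 4). Tle4 separates the genotypes fully, with mutant libraries at 28.1 to 34.3 CPM and WT libraries at 17.8 to 25.2 CPM, whereas Hdac8 separates them except for mutant replicate 3.

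Tle4 encodes a full-length Groucho/TLE corepressor and is on chr19:14448072-14598051 (GRCm38, minus strand, as the count tables give it). Its levels were 17.8, 25.2, 18.7 and 19.6 CPM in WT replicates 1 to 4 and 31.0, 28.1, 29.8 and 34.3 CPM in Tbx20EH1Mut replicates 1 to 4. The lowest mutant library stood above the highest WT library, which was WT replicate 2. Tle4 rose by a log2 fold change of 0.60 (SE 0.14, 95% interval 0.30 to 0.90, edgeR adjusted p = 0.00975), which is 1.52-fold. Dropping any single library kept the call (8 of 8, log2 fold changes 0.54 to 0.73). It was lost when the mean level of the foregut epithelium markers entered the fit as a covariate (0.31, adjusted p = 0.214). Those markers moved with the genotype, at 217, 295, 190 and 230 CPM in WT replicates 1 to 4 and 892, 789, 656 and 841 CPM in mutant replicates 1 to 4. Most of these sums came from the keratin genes Krt8 (means 146 and 445 CPM in WT and mutant hearts) and Krt18 (67.4 and 223 CPM). Of the 10 markers, 3 did not overlap between the genotypes, near the share of 30.5% among all genes. All 10 had positive log2 fold changes, from 1.61 to 3.48 with a median of 2.49, against 0.005 over all genes. Of these markers 5 were called higher, against 14.0% of all genes. The covariate was a mean of log2 levels, in which each marker had the same weight. The part of foregut tissue in the Tle4 difference was not tested apart from this covariate.

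Tle3, on chr9:61372366-61418497 (plus strand), encodes another full-length corepressor and had the highest mean CPM of Tle1 to Tle4. It was at 50.1, 74.1, 55.8 and 53.0 CPM in WT replicates 1 to 4 and at 84.6, 71.6, 63.2 and 74.6 CPM in mutant replicates 1 to 4. All 4 mutant libraries were above the WT mean, but WT replicate 2 overlapped them. The log2 fold change of 0.34 (SE 0.15, 95% interval 0.01 to 0.66) did not pass the threshold (edgeR adjusted p = 0.105). Without WT replicate 2, the library high in long genes, it was 0.48 (adjusted p = 0.0166), and with an offset for gene length it was 0.43 (adjusted p = 0.0103). Upper-quartile scaling also took it past the threshold (0.43, adjusted p = 0.0381), whereas the foregut marker covariate gave a value of -0.07 (adjusted p = 0.794). The summed exons of Tle3 were 11653 bases long, the longest of the members.

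Tle1, on chr4:72117142-72200919 (minus strand), encodes a full-length corepressor as well. Its levels were 13.6, 25.3, 19.4 and 18.9 CPM in WT and 31.6, 24.2, 18.4 and 17.6 CPM in mutant libraries. The libraries of both genotypes overlapped widely, with mutant replicate 1 highest and WT replicate 1 lowest of the 8. Its log2 fold change was 0.25 (SE 0.23, 95% interval -0.25 to 0.75, edgeR adjusted p = 0.424), and it took a negative value (-0.33) with the foregut marker covariate. Single libraries moved it widely, from 0.06 without mutant replicate 1 to 0.42 without WT replicate 2, and it was not called in any alternative. A predicted antisense gene overlaps 247 bases of Tle1 exons, and it had 0 counts in these libraries.

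Tle2, on chr10:81574561-81590845 (plus strand), was the one full-length family gene with a negative fold change. It was at 12.3, 17.7, 15.4 and 18.2 CPM in WT replicates 1 to 4 and at 15.1, 12.0, 10.2 and 11.9 CPM in mutant replicates 1 to 4. WT replicate 1 lay among the mutant libraries, and mutant replicate 1 lay among the WT libraries. The log2 fold change of -0.37 (SE 0.17, 95% interval -0.75 to 0.004) did not pass the threshold (edgeR adjusted p = 0.119). Without WT replicate 1 it was -0.48 (adjusted p = 0.0392), and with the foregut marker covariate it was -0.75 (adjusted p = 0.034). All 19 alternative fits gave negative values for Tle2.

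Tle6 and Aes are the short family members. Tle6 lacks much of the conserved amino-terminal part of the family, and Aes holds that part but lacks the carboxy-terminal WD40 repeats through which full-length TLE proteins bind EH1 motifs. Their longest annotated coding sequences spanned 581 and 197 codons, against 767 to 783 codons in Tle1 to Tle4. Tle6 (chr10:81590904-81601073, minus strand) was at 11.1, 12.9, 12.9 and 13.7 CPM in WT and 13.7, 12.0, 11.0 and 11.9 CPM in mutant libraries. Its groups overlapped throughout, with a log2 fold change of -0.06 (95% interval -0.35 to 0.24, edgeR adjusted p = 0.774). Aes (chr10:81559494-81566362, plus strand) was at 333, 223, 272 and 302 CPM in WT and at 259, 285, 275 and 276 CPM in mutant libraries. The mutant libraries all fell inside the range of the WT libraries, whose lowest was WT replicate 2, the library low in short genes. For Aes the log2 fold change was -0.05 (95% interval -0.34 to 0.25, edgeR adjusted p = 0.818). Neither sign held across the alternatives, which gave -0.25 to 0.22 for Aes and -0.20 to 0.03 for Tle6. Tle2 and Tle6 end 58 bases apart on opposite strands, and Aes lies 8198 bases from Tle2, so reads that run past a gene end could be shared between Tle2 and Tle6.

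Among the deacetylases, Hdac8 was the one member called. This X-linked gene (chrX:102284639-102505359, minus strand) encodes the class I enzyme that acts on its own. It was at 4.13, 6.21, 6.12 and 5.72 CPM in WT replicates 1 to 4 and at 9.53, 13.1, 6.19 and 7.98 CPM in mutant replicates 1 to 4. Mutant replicate 3 lay just under the highest WT library, and the other mutant libraries were above all WT libraries. Its estimate was a log2 fold change of 0.73 (SE 0.24, 95% interval 0.19 to 1.27, edgeR adjusted p = 0.0462), which is 1.66-fold. Hdac8 was the least counted member, with 136 to 494 counts per library. When a single library was dropped, its call was lost in 7 of 8 cases, with adjusted p-values up to 0.122 and log2 fold changes of 0.51 to 0.89, and it was kept only without mutant replicate 3 (adjusted p = 0.0188). The call was also lost in 6 of 11 alternatives over all libraries. By limma-voom the log2 fold change was 0.68 (adjusted p = 0.0541), and with the Y-linked covariate it was 0.81 (edgeR adjusted p = 0.0546). With the foregut marker covariate it was 0.31 (edgeR adjusted p = 0.57). The part of foregut tissue in this difference was not tested apart from the covariate.

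The promoters of both called members are shown to place their starts. RefSeq (GRCm38.p6) gives 2 windows for Tle4, of which the other is at chr19:14597164-14597463 on the minus strand. The one shown belongs to the start nearer to the gene boundary in the count tables, with the 300-base window from 250 bases before to 50 bases after it at chr19:14598134-14598433 on the minus strand. The Hdac8 window is at chrX:102505109-102505408 on the minus strand. No capitals are used because the searched motif was in neither.
Tle4 promoter: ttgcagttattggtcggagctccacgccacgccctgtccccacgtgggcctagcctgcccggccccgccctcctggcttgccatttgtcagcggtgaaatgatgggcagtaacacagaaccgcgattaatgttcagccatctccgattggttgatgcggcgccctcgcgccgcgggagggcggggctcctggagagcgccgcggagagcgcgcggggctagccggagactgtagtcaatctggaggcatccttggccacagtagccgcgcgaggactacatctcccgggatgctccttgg
Hdac8 promoter: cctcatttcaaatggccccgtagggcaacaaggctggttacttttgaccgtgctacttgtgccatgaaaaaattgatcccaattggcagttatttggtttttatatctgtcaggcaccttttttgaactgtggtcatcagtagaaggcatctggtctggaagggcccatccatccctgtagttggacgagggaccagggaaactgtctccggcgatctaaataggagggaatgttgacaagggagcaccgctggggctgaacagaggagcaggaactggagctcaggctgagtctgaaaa
The 9 promoter windows kept here belong to 7 of the member genes, and Aes, Hdac1 and Hdac3 were not covered. The T-box core motif AGGTGT, searched on both strands, was in 0 of these 9 windows and in 13.7% of all 32851 windows of the same length. This says only that these 6 letters are not in those windows.

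Hdac1 and Hdac2 encode the paired catalytic subunits of NuRD, Sin3 and CoREST. Hdac1 (chr4:129516104-129542713, minus strand) was at 171, 198, 188 and 195 CPM in WT replicates 1 to 4 and at 168, 167, 171 and 162 CPM in mutant replicates 1 to 4. All mutant libraries were below all WT libraries, by a margin of under 1 CPM between WT replicate 1 and mutant replicate 3. This difference, a log2 fold change of -0.17 (SE 0.10, 95% interval -0.38 to 0.04), did not pass the threshold (edgeR adjusted p = 0.201), nor did that of any alternative. Hdac1 counts are uncertain in part, since 24.9% of the 100-base stretches in its annotated transcripts also occur in the transcript of its copy Gm10093, which held 48 to 115 counts per library or 1.07% of the Hdac1 total. Hdac2 (chr10:36974544-37001889, plus strand) was at 226, 174, 228 and 208 CPM in WT and 210, 227, 230 and 224 CPM in mutant libraries. WT replicate 2 was the lowest of the 8 and the rest of the values overlapped, with a log2 fold change of 0.09 (95% interval -0.17 to 0.34, edgeR adjusted p = 0.577). Alternatives gave Hdac2 values from 0.02 (without WT replicate 2) to 0.39 (foregut marker covariate), none of them called.

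Hdac3, on chr18:37935844-37954988 (minus strand), encodes the catalytic subunit of the NCoR/SMRT complex. It was at 82.2, 75.1, 80.6 and 87.7 CPM in WT replicates 1 to 4 and at 87.4, 91.6, 103 and 88.7 CPM in mutant replicates 1 to 4. The groups overlapped by 1 pair of libraries, WT replicate 4 and mutant replicate 1. With a log2 fold change of 0.19 (SE 0.10, 95% interval -0.04 to 0.41, edgeR adjusted p = 0.181) it did not pass the threshold, and all 19 alternatives gave positive values that did not pass it.

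**Figure D2:**
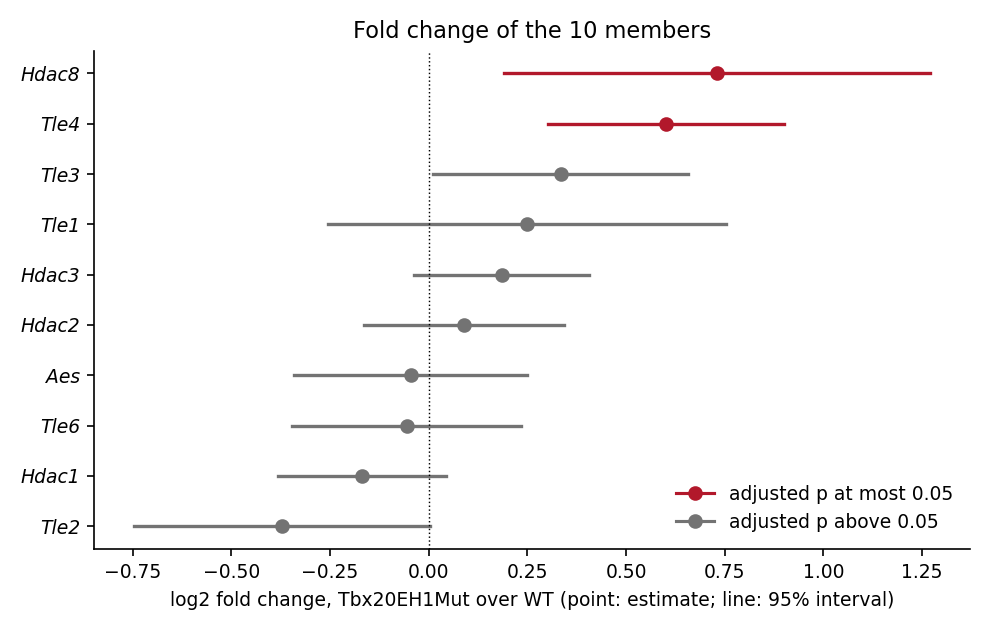
Log2 fold change of each member, mutant over WT, with the edgeR estimate as a point and its 95% interval as a line, in red for an adjusted p of at most 0.05. Tle4 (0.60) and Hdac8 (0.73) are the members called, and the interval of Hdac8 is the widest at 0.19 to 1.27.

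The levels of different members were compared per kilobase of summed exon, the combined length of all exons of a gene, and then per kilobase of the transcript with the longest coding sequence. Per kilobase of summed exon, Aes was highest in WT hearts, with a mean of 200.1 ± 33.4 CPM per kilobase (SD, n = 4). Hdac1 (54.5 ± 3.44) and Hdac2 (46.8 ± 5.59) followed and overlapped each other, and Hdac3 was at 20.2 ± 1.29. The full-length TLE genes were lower still. Tle3 was at 5.0 ± 0.93 and Tle4 at 4.38 ± 0.72 CPM per kilobase, and these overlapped each other and Tle6 (4.09 ± 0.36). Tle2 (2.55 ± 0.43) and Tle1 (2.21 ± 0.55) also overlapped, and Hdac8 was lowest at 1.15 ± 0.20. In Tbx20EH1Mut hearts the mean of Tle4 (6.64 ± 0.56) was above that of Tle3 (6.31 ± 0.76) and the mean of Hdac2 (49.8 ± 2.0) was above that of Hdac1 (48.5 ± 1.09), but each of these pairs overlapped between libraries. Tle1, Tle2 and Hdac8 formed an overlapping low end at 1.90 to 2.63 CPM per kilobase. The order of several members depended on the length used. Per kilobase of transcript, Hdac2 (104 ± 12.5) had a higher mean than Hdac1 (92.2 ± 5.81) in WT as well as in mutant hearts (111 ± 4.46 and 82.0 ± 1.83), with overlap in WT and none in the mutants. Tle3 then had the highest mean of Tle1 to Tle4 in both genotypes (11.2 ± 2.08 in WT and 14.1 ± 1.70 in mutant hearts), but overlapped Tle1 in both. Tle4 (4.47 ± 0.73 and 6.78 ± 0.58) had a lower mean than Tle1 (7.51 ± 1.85 and 8.93 ± 2.53) in both, again with overlap. In WT hearts the mean of Tle4 was then also under those of Tle6 (6.27 ± 0.55) and Tle2 (5.78 ± 0.97). Aes stayed highest and Hdac3 kept its place after Hdac1 and Hdac2 by both lengths in both genotypes. Hdac8 had the lowest mean in WT hearts by both lengths. Per kilobase of transcript its mean in mutant hearts (4.75 ± 1.52) was above that of Tle2 (4.47 ± 0.74). Its mutant libraries then overlapped those of Tle2, Tle6 and Tle4. The differences between genes in one genotype were not tested.

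**Figure D3:**
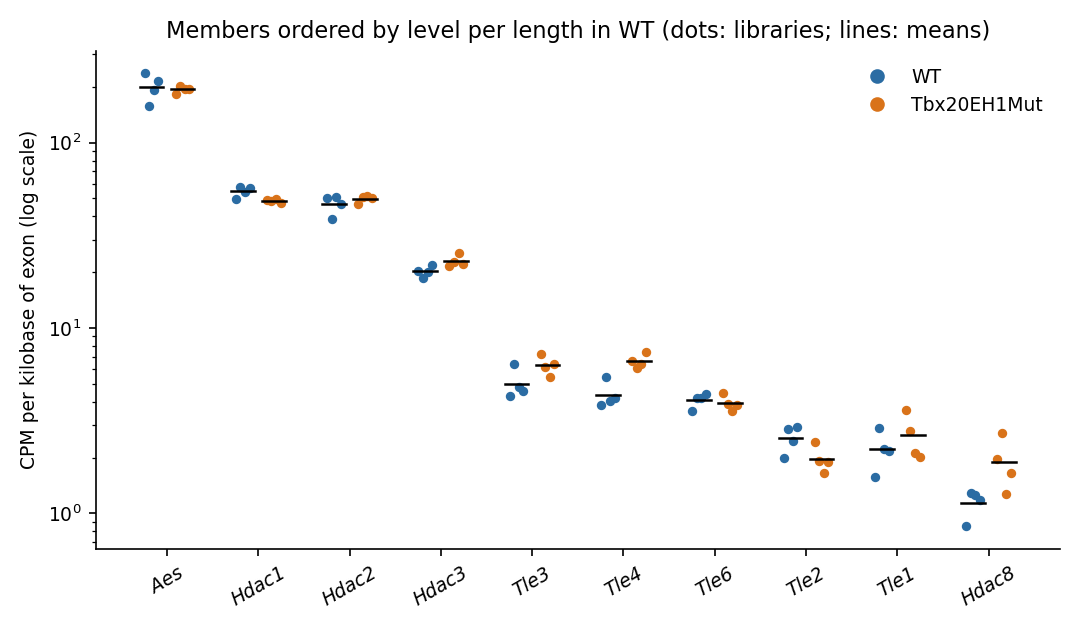
Level of each member in CPM per kilobase of exon (log axis), ordered by the WT mean, with 1 dot per library and a line at each mean. Aes stands near 200 CPM per kilobase in both genotypes, the main deacetylases between 18.7 and 57.4, and the other TLE family genes and Hdac8 below 7.4.

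Levels were also added within each family, per kilobase of summed exon unless stated, as a description with no test. Tle1 to Tle4 together came to 14.1 ± 2.45 CPM per kilobase in WT and 17.6 ± 1.84 in mutant hearts, with overlap. The 4 class I deacetylases together came to 116 to 127 CPM per kilobase in WT and 119 to 128 in the mutant libraries, which overlapped, mutant replicate 3 being the highest of the 8. Aes, the short form, stood at 14.7 ± 4.61 times the summed Tle1 to Tle4 in WT and 11.2 ± 1.45 times in mutant hearts, with overlap. Per kilobase of transcript these ratios were 7.23 ± 2.36 and 5.74 ± 0.89, also with overlap.

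The composition of Tle1 to Tle4 was described by the share of each gene in the sum. Tle4 made up 32.8, 31.0, 29.8 and 30.4% of the sum in WT replicates 1 to 4 and 33.4, 35.8, 41.2 and 41.7% in mutant replicates 1 to 4. Tle2 made up 17.0, 16.2, 18.3 and 21.1% in WT and 12.1, 11.4, 10.5 and 10.8% in mutant libraries. Neither share overlapped between the genotypes, the mutant share being higher for Tle4, by a gap of under 1 percentage point between WT replicate 1 and mutant replicate 1, and lower for Tle2. Per kilobase of transcript the Tle4 share was 16.8, 15.4, 14.7 and 15.1% in WT and 16.7, 18.3, 22.2 and 22.9% in mutant libraries, so that WT replicate 1 and mutant replicate 1 overlapped. The Tle2 share was then 17.9 to 23.2% in WT and 12.6 to 13.4% in mutant libraries, again without overlap. The shares of Tle3 (means 35.3 and 35.9%) and Tle1 (15.5 and 14.9%) overlapped, as they did per kilobase of transcript, where the mean share of Tle1 was 25.7% in both genotypes. Because shares of 1 sum are not independent, a higher share of one gene lowers the others.

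Among the class I deacetylases, Hdac1 made up 40.9 to 49.3% of the sum in WT and 38.8 to 40.9% in mutant libraries, which touched but did not overlap. Hdac3 made up 15.8 to 17.3% in WT and 18.2 to 19.9% in mutant libraries, also without overlap, and neither share overlapped per kilobase of transcript. The share of Hdac2 overlapped (means 38.1 and 40.4%), and that of Hdac8 stayed small (means 0.935 and 1.55%). The ratio of Hdac1 to Hdac2 was 0.984, 1.47, 1.07 and 1.21 in WT and 1.04, 0.956, 0.965 and 0.940 in mutant libraries, and mutant replicate 1 lay inside the WT range. Per kilobase of transcript the means were 0.897 in WT and 0.739 in mutant hearts, with overlap.

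Relative to Tbx20, the summed Tle1 to Tle4 stood at 0.397, 0.575, 0.427 and 0.447 in WT and at 1.11, 0.820, 0.647 and 0.671 in mutant libraries. The mutant libraries were all above the WT libraries. Both the lower Tbx20 and the Tle values enter this ratio, its level depends on the gene lengths used, and it describes RNA, not protein.

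**Figure D4:**
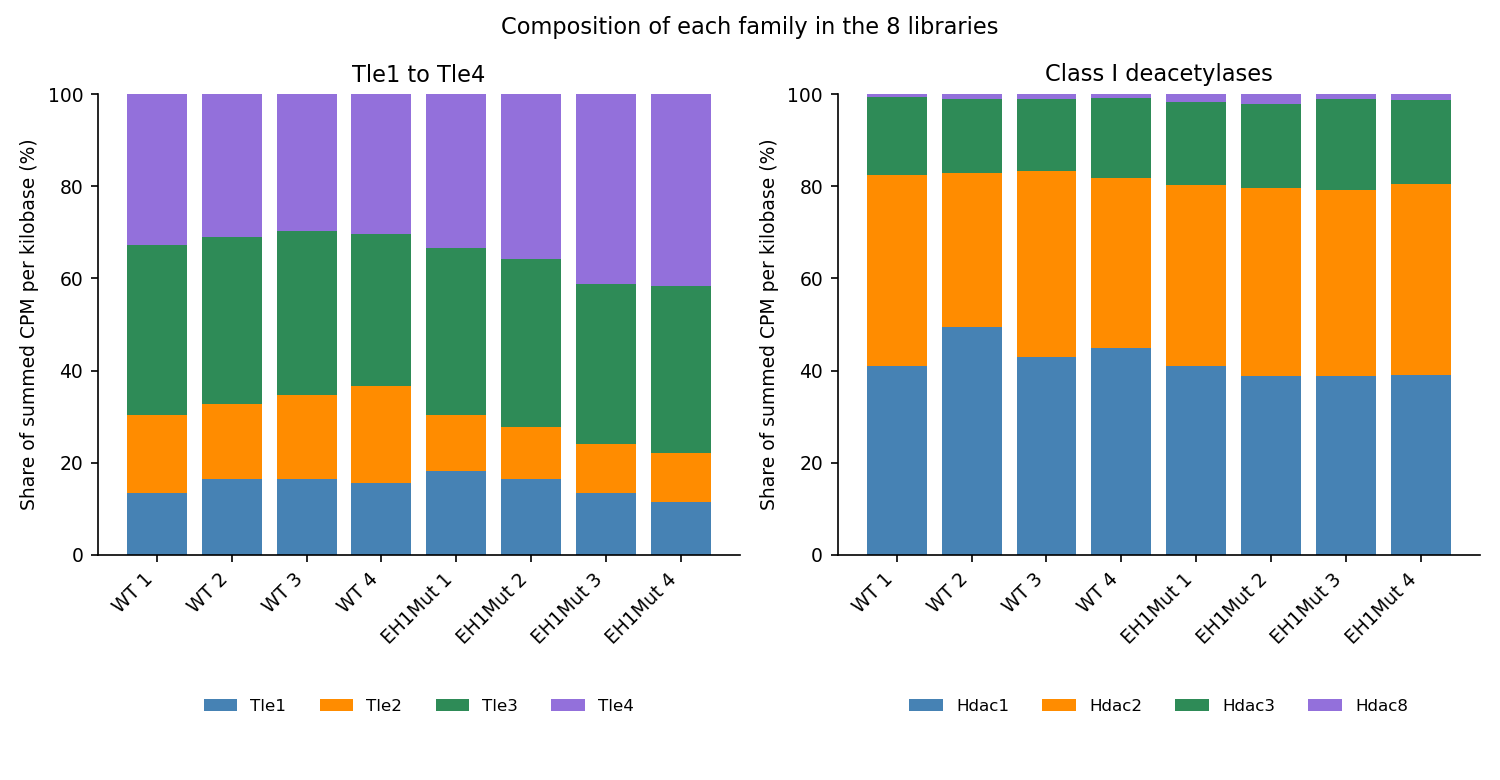
Share of each gene in the summed CPM per kilobase of Tle1 to Tle4 (left) and of the class I deacetylases (right), in percent from 0 to 100, with 1 stacked bar per library. Per kilobase of summed exon, the Tle4 share is 29.8 to 32.8% in WT and 33.4 to 41.7% in mutant libraries, and the Tle2 share is 16.2 to 21.1% and 10.5 to 12.1%.

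Genes that work with the members were described from 6 lists: the NuRD, Sin3, CoREST and NCoR/SMRT complexes, the other deacetylases, and factors known to recruit TLE proteins. Of their 87 genes 77 were tested, and 28 of these (36.4%) were called, 15 higher and 13 lower, against 29.3% of all genes. The counts of each list below stand against 14.0% called higher and 15.3% called lower over all genes. The number fell to 16 without WT replicate 3 and to 17 without WT replicate 4 or without mutant replicate 4, and the share called over all genes fell in the same fits to 17.4, 17.0 and 17.3%.

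In NuRD, a nucleosome remodelling and deacetylase complex, 0 of 13 genes were called higher and 3 lower, against 14.0% and 15.3% of all genes. The median log2 fold change was -0.15. At an unadjusted edgeR p under 0.05, 0 genes were higher, and none was called higher by DESeq2 or limma-voom. Gatad2a, a scaffold subunit, fell from 134 ± 27.7 to 83.1 ± 6.94 CPM (log2 fold change -0.69, edgeR adjusted p = 0.0083). Cdk2ap1, a small subunit, fell from 98.6 ± 4.72 to 70.3 ± 9.61 CPM (-0.49, adjusted p = 0.0135). The histone-binding subunits did not pass the threshold, Rbbp4 at 0.17 (adjusted p = 0.422) and Rbbp7 at 0.32 (0.128), nor did Mta1, which joins the deacetylases to the complex, at -0.02 (0.908).

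In Sin3, 4 of 14 genes were called higher and 3 lower. Ing2, a reader of histone methylation, rose from 21.3 ± 4.70 to 38.6 ± 5.68 CPM (log2 fold change 0.86, edgeR adjusted p = 0.00555), and Sap30, which was at 47.4 to 67.5 CPM in WT and 88.5 to 106 CPM in mutant libraries, also rose (0.72, 0.00295). Sap130 fell by 0.77 on the log2 scale (adjusted p = 0.041) and Brms1l by 0.55 (0.0106). The subunits of this complex thus included called genes in both directions.

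In CoREST, which pairs Hdac1 and Hdac2 with a histone demethylase, 2 of 10 genes were called higher and 2 lower. Phf21a, a reader of unmethylated histone H3, rose from 42.0 ± 5.62 to 72.5 ± 12.4 CPM (log2 fold change 0.79, edgeR adjusted p = 0.00416) and Zmym2 from 68.0 ± 2.39 to 90.3 ± 7.42 CPM (0.41, 0.0126). Hmg20b fell by 0.44 on the log2 scale (0.0156). In NCoR/SMRT, the partner complex of Hdac3, none of 5 genes was called by edgeR, DESeq2 or limma-voom, and 1 was higher and 0 lower at an unadjusted edgeR p under 0.05.

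Of the 14 other deacetylases, 1 was called higher and 3 lower. The class IV enzyme Hdac11 rose from 7.11 ± 1.88 to 11.3 ± 1.69 CPM (log2 fold change 0.66, edgeR adjusted p = 0.042). The sirtuin Sirt7 fell by 0.62 on the log2 scale (0.0196) and the class IIb enzyme Hdac10 by 0.56 (0.0357).

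Among the factors that recruit TLE proteins, 21 of 31 were tested, and 8 were called higher and 2 lower. Over all genes 14.0% were called higher and 15.3% lower. The median log2 fold change of the list was 0.81, against 0.005 over all genes. Prdm1, a zinc finger repressor, was at 2.0, 7.62, 2.05 and 1.81 CPM in WT and 16.9, 13.3, 17.9 and 12.4 CPM in mutant libraries. It rose by 2.16 on the log2 scale (SE 0.45, edgeR adjusted p = 0.00708), with all mutant libraries above all WT libraries. The size of this rise depends on WT replicate 2, which stood well above the other WT libraries, and its value without that library was not followed. Hes1, a repressor downstream of Notch, rose from 41.3 ± 9.91 to 88.1 ± 19.4 CPM (1.09, 0.00364). Msx1, a homeodomain repressor, fell from 31.3 ± 1.86 to 13.5 ± 3.85 CPM (-1.21, 0.00159). Tbx20 was the other gene called lower. Hes2 and En1 had 0 counts in all 8 libraries. Foxa1 and Foxa2 are in this list and in the foregut epithelium list, whose summed level moved with the genotype, and the part of that tissue in the count was not tested.

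**Figure D5:**
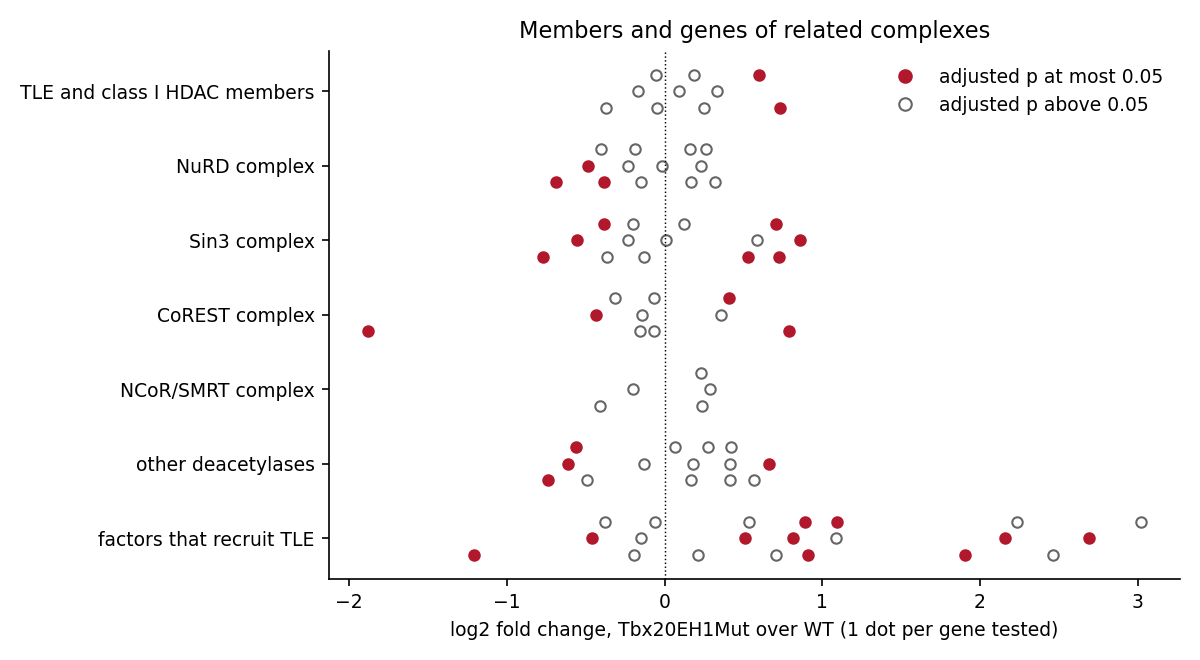
Log2 fold change, mutant over WT, of each tested gene (1 dot) in the members and in 6 lists of related genes, filled red for an adjusted p of at most 0.05. The members span -0.37 to 0.73, and the factors that recruit TLE span -1.21 to 3.02 with 8 of 21 called higher and 2 lower (14.0% and 15.3% over all genes).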

How the data were processed

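The deposited tables held raw counts per Ensembl gene, whole numbers that the authors had not normalized, for 4 WT and 4 Tbx20EH1Mut libraries, with summed exon lengths. Poly-A selected libraries were sequenced at a company as paired-end reads. The submitters' processing notes name Trimmomatic 0.36, STAR 2.5.2b and GRCm38. The counting tool and its strand setting are not given in the sources used here, so overlapping antisense genes cannot be told apart. Of 49315 genes, 48970 were given a symbol by identifier through GENCODE M21.

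Counts were fitted in R 4.3.3 with edgeR 4.0.16 (filterByExpr, TMM, glmQLFit and glmQLFTest, genotype only), with Benjamini-Hochberg adjustment over 17163 genes and a call at an adjusted p of at most 0.05. The common dispersion was 0.0707. The steps were tested on simulated counts of a lower dispersion. Beyond count noise, simulated libraries of a genotype differed only in size, so this test was easier than the data. Levels are TMM-scaled CPM. Sums, shares and ratios of members were computed from CPM per kilobase of summed exon, and again per kilobase of the GENCODE M21 transcript with the longest coding sequence, and not tested. Sequences were read from GRCm38 and RefSeq windows. Motif matching was exact.

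The members and lists were chosen with earlier results of these data known. Named genes were the 10 members, Tbx20, Mta1, Rbbp4, Rbbp7 and, per list, up to 2 called genes with the largest rise and 2 with the largest fall, averaging 5 CPM or more and without overlap of the genotypes. Within each genotype no pair of libraries was alike within counting error (chi-square per degree of freedom 11.1 to 233), so each counted as 1 replicate, and p-values measure the spread between pools of 3 hearts. Alternatives were other scalings, filters and tests (DESeq2 1.42.0, limma 3.58.1), a fold threshold of 0.5 on the log2 scale, covariates, a gene length offset, a replicate block and leaving out each library.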

Additional observations from a re-analysis of the deposited data

How the results depend on the processing

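The 2 members called became 1 with library size alone, limma-voom, no filter, the replicate block or the Y-linked covariate, Tle4 being the one that remained. Hdac8 lost its call there at log2 fold changes of 0.68 (library size alone) to 0.81 (Y-linked covariate), against 0.73 in the main fit. The number became 3 with upper-quartile scaling or the gene length offset, which added Tle3. With the foregut marker covariate 1 member was called, Tle2, with 0 called higher and 1 lower, while 34.1% of all genes were called. Leaving out each library in turn gave 1 to 2 members called and 1 to 2 called higher, and 0 to 1 called lower (Tle2, without WT replicate 1), while the share called over all genes ran from 17.0% (without WT replicate 4) to 37.3% (without WT replicate 1). The 28 called genes of the related lists became 16 with the Y-linked covariate, where 17.7% of all genes were called, and ranged from 16 to 32 when a library was left out. For Tbx20, the log2 fold change of -0.46 became -0.38 with upper-quartile scaling (adjusted p = 0.0608), -0.34 with the foregut marker covariate (0.211), -0.48 with the Y-linked covariate (0.0619) and -0.39 with the gene length offset (0.0898), and ranged from -0.55 to -0.36 when a library was left out. The cause of these changes was not tested. The difference in the Tle4 share of Tle1 to Tle4, 0.29 on the log2 scale, was 0.36 with the transcript with the longest coding sequence as length, an alternative chosen after seeing the data, with which the WT mean of the share was 15.5% and not 31.0%, and 0.35 without mutant replicate 1. No called log2 fold change of a member or of Tbx20 changed sign. The direction of single genes in the related lists was not followed across the alternatives.

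Replicate numbers are shared by both genotypes, and the labels do not say whether equal numbers mark pairs. The same-number correlations of deviations from the group means were -0.27, 0.34, 0.06 and 0.06. So few values cannot decide whether libraries were paired, and the main fit treated them as unpaired. With the replicate block, 1 member was called (Tle4) and Hdac8 was at 0.70 (adjusted p = 0.0732), and the calls over all genes went from 2406 higher and 2618 lower to 1997 and 1948. Upper-quartile scaling called 2859 genes higher and 1997 lower, with the median of all genes at 0.09 on the log2 scale. The Y-linked covariate called 1519 higher and 1518 lower. Hdac8 had 136 to 494 counts per library and a coefficient of variation of 32.0% among the mutant libraries, and 4 pools per genotype limit all intervals.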
